A study of Mus musculus with 6 samples.

Results

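Glutathione transferases join glutathione to reactive or oxidised compounds. The 10 genes described here, of 12393 measured by the arrays, belong to the mu class (Gstm1, Gstm2, Gstm5), to other cytosolic classes (Gsta4, Gstp1, Gsto1, Gstt1, Gstt2) and to the membrane-bound microsomal group (Mgst1, Mgst3). The family was chosen by the levels of Gstm1 and Gstm2, which were lower in mutant lenses. The contrast of mutant with wild type therefore describes the members here and tests nothing about them. All 10 were measured, by 16 probe sets, and a gene is represented by its brightest probe set unless another is named.

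RNA came from lenses of newborn mice, 1 sample to an array. The mutant group (3 arrays) was the Le-AP-2alpha conditional mutant of Tfap2a (Tcfap2a in the labels), the gene of the transcription factor AP-2alpha, and the other group (3 arrays) was wild-type littermates. The labels do not name the promoter that drives the deletion, the strain, or whether a sample pools animals, so the spread between samples may be partly technical. Lens fibre markers marked the tissue in both groups: Cryaa, an alpha crystallin, had a mean log2 level of 13.68 in mutants and 13.73 in wild types. Tfap2a itself read 9.57, 9.64 and 9.83 against 8.36, 9.26 and 9.56 in wild types (log2) on its brightest probe set, 0.62 ± 0.33 (SE) higher in mutants. The other 2 probe sets had higher means too, by 1.57 ± 0.49 and 0.36 ± 0.36, but their groups overlapped. On the brightest probe set the groups were apart by only 0.01, and without wild-type replicate 1 the difference was 0.27. With the place of the probes and the deleted part unknown, these probe sets do not check the deletion. Wild-type replicate 1 stood apart, its correlation with each of the other 5 arrays lying at 0.926 to 0.945, while those 5 correlated at 0.974 to 0.985 among themselves. In whole-tissue RNA, fewer cells of a type and less RNA per cell cannot be told apart.

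The lens lives with light and oxygen for a lifetime without replacing its fibre cells, and it keeps a large store of reduced glutathione. Cytosolic transferases act as dimers that use this store to conjugate electrophiles such as the aldehydes left by lipid peroxidation. The microsomal forms belong to a separate family of membrane proteins, some of which also reduce lipid hydroperoxides. Genes of the mu class lie side by side in 1 cluster, and their close sequences let a probe of one gene pick up the RNA of another.

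The sequences upstream of Gstm1, Gstm2 and Gstm5 are shown because these genes of 1 class and cluster had unlike differences between the groups. The differences were large for the first pair and small for Gstm5, which does not lie next to them. Each window is the 250 bases before a RefSeq transcript start (GRCm38.p6), 5′ to 3′ on the strand of the gene, and capitals mark a match to the core of the antioxidant response element. For Gstm1, which has a further start in the table, the window of the outermost start is given.

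Gstm1, chr3:108017974-108018223, - strand: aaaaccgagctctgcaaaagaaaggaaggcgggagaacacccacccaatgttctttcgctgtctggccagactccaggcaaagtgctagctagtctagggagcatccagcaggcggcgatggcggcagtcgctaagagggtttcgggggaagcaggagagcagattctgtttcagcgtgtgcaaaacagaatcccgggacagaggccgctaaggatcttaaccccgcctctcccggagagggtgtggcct

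Gstm2, chr3:107986421-107986670, - strand: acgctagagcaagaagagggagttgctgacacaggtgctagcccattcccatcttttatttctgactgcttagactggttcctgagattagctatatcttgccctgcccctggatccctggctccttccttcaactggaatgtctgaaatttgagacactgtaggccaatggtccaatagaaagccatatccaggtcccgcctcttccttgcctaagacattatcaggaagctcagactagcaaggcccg

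Gstm5, chr3:107895604-107895853, + strand: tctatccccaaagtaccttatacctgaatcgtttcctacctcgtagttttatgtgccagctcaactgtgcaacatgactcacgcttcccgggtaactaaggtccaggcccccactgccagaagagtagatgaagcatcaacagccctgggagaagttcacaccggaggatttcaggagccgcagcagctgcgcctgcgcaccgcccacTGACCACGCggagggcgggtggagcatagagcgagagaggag

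The first motif searched was the AP-2 core GCCNNNGGC, which reads the same on both strands. The second was the core of the antioxidant response element, TGACNNNGC, searched on both strands. It is a form of the sequence that Nrf2 with small Maf proteins is known to bind. Other forms were not searched, and a window without a match may hold them. Windows were in the table for 8 of the 10 members, all but Gsta4 and Gstt2, and these members had 10 windows. None (0) of the 10 held the AP-2 core, which 13.7% of all 32851 windows of this length held, and 2 of them, of Gstm5 and Mgst1, held the antioxidant core, against 10.2% of all. The match in Gstm5, TGACCACGC, began 42 bases before the start, and that in Mgst1, GCACGGTCA on the opposite strand, 56 bases before. Among the 12 windows of the 7 Gstm genes, 0 held the AP-2 core and 2 held the antioxidant core. These were the window of Gstm5 and a window of Gstm7, with TGACAAAGC beginning 129 bases before the start. A match describes the letters of a window, and its lack says nothing of either factor.

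Gstm2, a mu class transferase, had the largest difference of the 10 members. Its intensity was 62.2, 54.6 and 69.2 in the mutants and 551, 204 and 341 in the wild types. The 3 mutant arrays lay close together and below each wild-type array, while the wild types spread over a wider range. The mutant mean was 5.95 ± 0.17 and the wild-type mean 8.40 ± 0.72 on the log2 scale (SD, n = 3 each), giving -2.45 ± 0.37 (SE), or 5.46-fold lower. The gap between the highest mutant and the lowest wild type, replicate 2, was 1.56 on the log2 scale, against a range of 0.34 within the mutants and 1.43 within the wild types. Without wild-type replicate 1, which had the highest level, the difference was -2.10.

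Gstm1, a mu class enzyme that is abundant in mouse liver, was measured by 4 probe sets. The brightest, 1416416_x_at, carries the suffix that marks probes shared with other sequences. Its intensities were 412.5, 553.7 and 528.2 in mutants and 2228, 1024 and 1936 in wild types. On the log2 scale the mutant mean was 8.95 ± 0.23 and the wild-type mean 10.68 ± 0.60 (SD, n = 3 each), giving -1.73 ± 0.33 (SE), or 3.32-fold lower. The probe set 1448330_at, without that suffix, gave 8.54, 8.94 and 8.73 against 11.10, 9.91 and 10.99, a difference of -1.93 ± 0.35. On both probe sets every mutant array lay below every wild-type array, and wild-type replicate 2 was the nearest to the mutants.

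The remaining Gstm1 probe sets lay near or below the array median. The shared probe set 1425627_x_at differed by -1.52 ± 0.45 (log2, SE), with mutants at 4.58, 4.90 and 5.0 and wild types at 6.90, 5.29 and 6.84, again without overlap. Probe set 1425626_at, below the array median on all 6 arrays, gave 2.08, 2.70 and 2.84 against 3.42, 2.77 and 3.06. There the groups overlapped, and the difference was -0.55 ± 0.28. All 4 probe sets thus had lower mutant means, and they share a target and are not separate evidence.

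**Figure D1:**
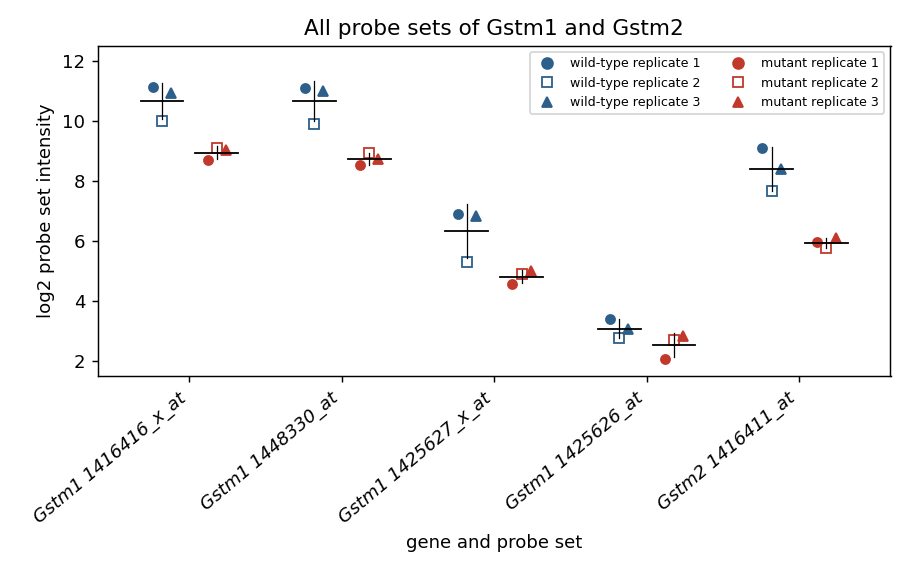
Log2 intensity (vertical axis) of the 4 probe sets of Gstm1 and the 1 of Gstm2 (horizontal axis), with a point for each array, a horizontal bar for the group mean and a vertical line for its SD (n = 3). Mutant points lie below the wild-type points except on the dim probe set 1425626_at, and wild-type replicate 2 is the lowest wild type throughout.

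Gstm1 and Gstm2 also varied alike among the wild types. Wild-type replicate 2 deviated from its group mean by -0.68 (Gstm1) and -0.72 (Gstm2) on the log2 scale, and replicate 1 by 0.44 and 0.71. Replicate 3 deviated by 0.24 and 0.01. A low replicate 2 was not particular to the pair, since it was the lowest wild type for Gstm5 (-0.31), Gstp1 (-0.33) and Gstt2 (-0.28) too. Among mutants no deviation exceeded 0.26 for Gstm1 or 0.18 for Gstm2 in size.

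Gstm5, a mu class transferase known from brain and testis, had a difference near 0. Its log2 levels were 10.95, 11.31 and 11.21 in mutants and 11.51, 11.07 and 11.57 in wild types. The groups overlapped, since wild-type replicate 2 lay below mutants 2 and 3. The difference was -0.23 ± 0.22 (SE).

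RefSeq places 7 Gstm genes in a row on chromosome 3, in the order Gstm5, Gstm7, Gstm6, Gstm3, Gstm2, Gstm1 and Gstm4, with no other protein-coding gene within the span (0). All 7 had a lower mean in mutants, as did 6474 of all 12393 genes. The differences ran from -0.23 for Gstm5 to -2.45 for Gstm2 on the log2 scale. For Gstm7 the sign rested on 1 wild-type array, and for Gstm3 and Gstm7 the difference was smaller than its SE. Mutants lay below wild types without overlap for Gstm6, Gstm4 and the pair chosen for being lower, Gstm1 and Gstm2. Of all genes 4.58% did so, and nothing is read from either count. Gstm4, next to Gstm1, was at 5.77, 6.48 and 6.22 in mutants and 7.77, 6.68 and 6.66 in wild types, a mean difference of -0.88 ± 0.37 (log2, SE). Wild-type replicate 1 held the highest of these values, and without it the difference was -0.52.

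Gstm6 was at 4.02, 3.68 and 4.04 in mutants and 4.61, 5.39 and 6.09 in wild types, a log2 difference of -1.45 ± 0.38 at a mean below the median probe set. Its order of wild types was unlike that of Gstm1 and Gstm2, with replicate 1 the lowest. Gstm7 was at 7.43, 7.84 and 8.07 against 9.53, 7.50 and 7.72. Its difference of -0.47 ± 0.55 came to 0.17 once wild-type replicate 1 was left out, so its sign rested on that array. Gstm3, a dim gene, differed by -0.24 ± 0.30, which the same omission brought to -0.03. The mean level of its wild types was 3.36 and that of its mutants 3.12. Gstm3 and Gstm7 had 2 probe sets each, of which only the brightest is given.

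**Figure D2:**
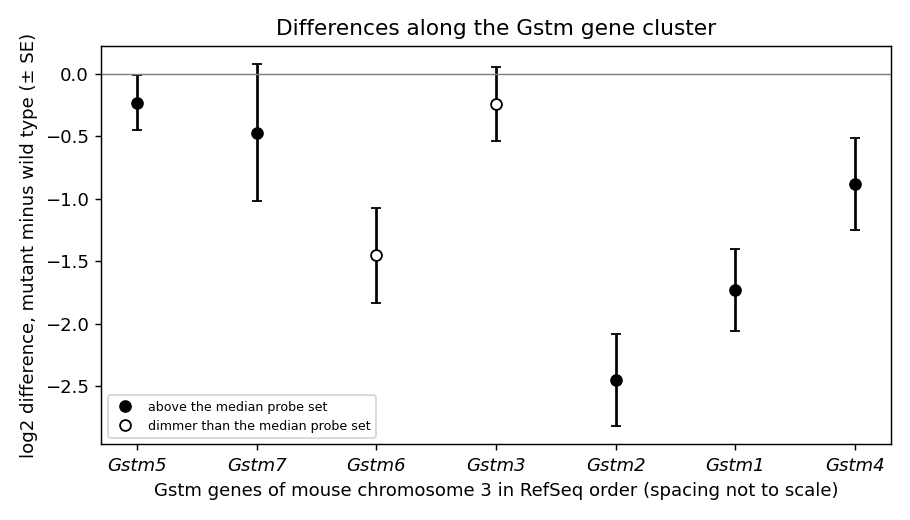
Log2 difference, mutant minus wild type, with its SE (vertical axis), of the 7 Gstm genes in their RefSeq order along chromosome 3 (horizontal axis, not to scale), 3 arrays per group. Gstm2 and Gstm1 have the most negative values, and open points mark the dim genes Gstm6 and Gstm3.

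Gstp1, the pi class transferase, had overlapping levels. They were 12.43, 12.65 and 12.22 in mutants and 12.33, 11.88 and 12.43 in wild types on the log2 scale. The difference was 0.22 ± 0.23 (SE), so that the mutant mean was slightly above the wild-type mean by less than its error. Gstp2, a close copy beside it, has no named probe set here, and the Gstp1 signal can include it.

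Gsta4 encodes an alpha class enzyme that is known to clear 4-hydroxynonenal, an aldehyde of lipid peroxidation. Its log2 levels were 9.87, 10.21 and 9.59 in mutants and 10.25, 9.70 and 9.40 in wild types. The ranges overlapped almost fully, and the difference was 0.11 ± 0.29 (SE). Its sign turned when mutant replicate 2 (-0.05) or wild-type replicate 3 (-0.09) was left out.

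Gsto1, an omega class enzyme with thiol transferase activity, was read by a pair of probe sets that disagreed. Probe set 1416531_at gave 6.77, 7.58 and 7.17 in mutants and 6.76, 6.70 and 6.88 in wild types, a log2 difference of 0.39 ± 0.24 (SE). Wild types were within 0.18 of each other and mutants spread over 0.80. Probe set 1456036_x_at, of the shared kind, gave 6.24, 7.03 and 7.03 against 8.14, 5.89 and 6.53, a difference of -0.09 ± 0.58. Leaving out the highest array, wild-type replicate 1, gave 0.56.

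The theta class genes were near or below the median. Gstt1 was at 4.93, 6.59 and 4.73 in mutants and 5.01, 5.05 and 5.29 in wild types. Mutant replicate 2 stood above all others, and without it the log2 difference of 0.30 ± 0.49 (SE) became -0.28. Gstt2 was at 4.31, 3.67 and 3.77 against 4.27, 3.93 and 4.42, a difference of -0.29 ± 0.25 at levels under the array median on all 6 arrays.

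Mgst1, a microsomal transferase with peroxidase activity, had wild-type values that split. Probe set 1415897_a_at gave 7.30, 7.39 and 7.59 in mutants and 5.36, 7.40 and 7.12 in wild types. Its log2 difference of 0.80 ± 0.53 (SE) rested on wild-type replicate 1, and without it was 0.17. The dim second probe set differed by 0.17 ± 0.22. Mgst3, a microsomal enzyme also linked to leukotriene synthesis, was dim on both of its probe sets, with differences of -0.58 ± 0.36 and -0.26 ± 0.21. Its brighter probe set read 3.50, 3.09 and 3.83 in mutants and 3.55, 3.88 and 4.72 in wild types, with wild-type replicate 3 above the rest.

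**Figure D3:**
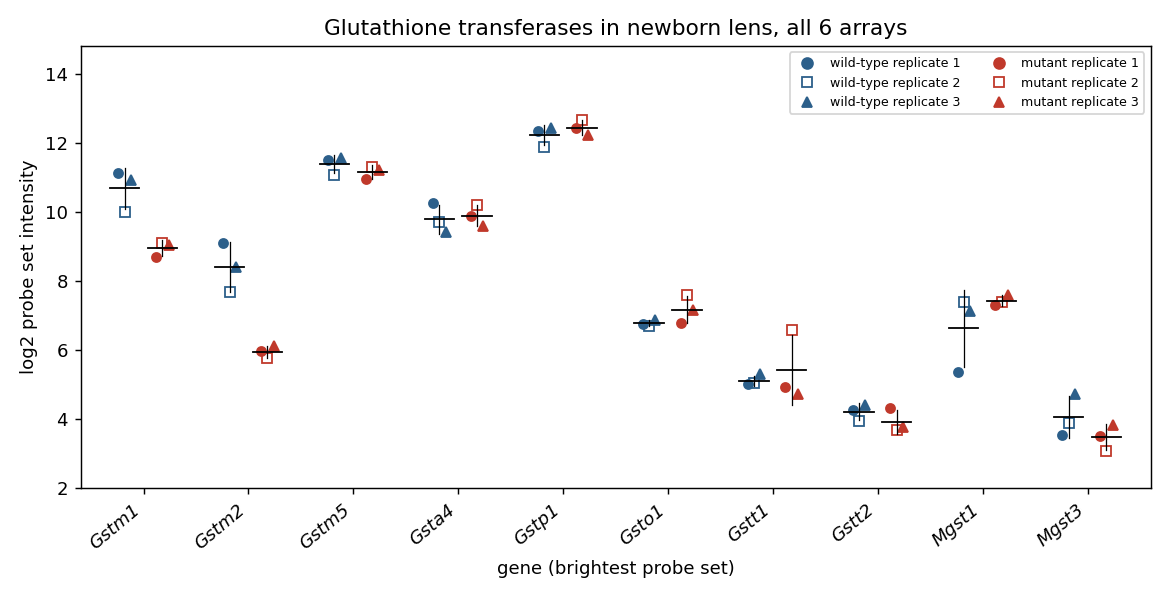
Log2 intensity of the brightest probe set (vertical axis) of each of the 10 members (horizontal axis), with a point for each array, a horizontal bar for the group mean and a vertical line for its SD (n = 3). The groups are apart for Gstm1 and Gstm2 and overlap for the other 8 members.

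Of the 16 member probe sets, 10 had a lower and 6 a higher mean in mutants, with a median log2 difference of -0.24, against -0.02 over all 22626 probe sets tested. Every mutant array lay below every wild-type array for 4 member probe sets, 3 of Gstm1 and 1 of Gstm2, and above for 0. Over all probe sets these shares were 4.61% for lower and 3.74% for higher. limma called 0 of the 16 at an adjusted p under 0.05, and 0% of all probe sets. Unadjusted p-values under 0.05 were found for 742 of all probe sets, 1.58% lower and 1.7% higher, and for 4 member probe sets, all lower and those without overlap. Leaving out mutant replicate 1 or 3 brought the count without overlap to 7, and leaving out wild-type replicate 2 to 8. Since Gstm1 and Gstm2 were picked for being lower, nothing is read from these counts. Over the 8 other members the median difference of the brightest probe sets was 0.16, with 5 higher and 3 lower and 0 without overlap. Dropping mutant replicate 2 gave -0.11, with 3 higher and 5 lower, and dropping wild-type replicate 2 gave 0.06.

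With each array weighted by limma the adjusted p of Gstm2 was 0.0302, at a difference of -2.42 (log2), and 1 member probe set and 7 of all probe sets were called. Those weights were 0.224, 0.569 and 5.65 for wild-type replicates 1, 2 and 3, so the wild-type level rested mostly on replicate 3. With equal weights the adjusted p of Gstm2 was 0.743. Gstm2 was picked for being lower on these same arrays, so neither value is a test of it.

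Marker genes of the lens and of other cell types also differed in mean level between the groups. Of 6 lens epithelium markers, 3 were lower and 3 higher in mutants, but 5 were lower and 1 higher when wild-type replicate 1 was dropped. Npnt, counted as higher, differed by 0 after rounding. The mean log2 level of the list per array ran from 7.63 to 7.69 in mutants and from 7.80 to 8.17 in wild types. Cdh1 (-1.29 ± 0.30, SE), Slc38a3 (-1.04 ± 0.40) and Foxe3 (-0.71 ± 0.29) were lower, while Pax6 (0.47 ± 0.47) and Ccnd1 (0.39 ± 0.23) were higher. Foxe3, a defining factor of that epithelium, was dim on all 6 arrays. Of 7 measured lens fibre markers 6 were lower, at 11.77 to 11.92 against 12.19 to 12.34, though the median difference was only -0.05. Cryaa (-0.05), Cryba1 (-0.02) and Crygs (-0.02) were lower by less than their SE, and Mip was higher by 0.03. Dnase2b (-1.44), Gja3 (-0.72) and Bfsp1 (-0.65) were lower by more. All 9 macrophage and leukocyte markers were higher, at 5.69 to 7.22 against 5.47 to 5.56, with Ptprc below the array median on every array. The 7.22 was mutant replicate 2, and dropping it took the mean difference from 0.77 to 0.30, with 8 of 9 higher. All 4 pigment cell markers were higher (6.82 to 7.23 against 5.93 to 6.80), and so were all 8 of retina neurons and glia (7.43 to 8.04 against 6.19 to 7.54). The 6.19 was wild-type replicate 1; with it dropped, the mean difference of the retina list went from 0.80 to 0.40, with 6 of 8 higher. Of 8 markers of corneal stroma and mesenchyme 7 were higher, at 4.36 to 5.46 against 3.94 to 4.38. Dropping mutant replicate 1 took their mean difference from 0.67 to 0.36, with 6 of 8 higher. The 5 markers of corneal and skin epithelium were all dim, at 3.32 to 3.41 against 3.04 to 3.31. Endothelial markers ran from 6.29 to 6.65 against 6.28 to 7.04, with 3 of 5 lower, or 5 of 5 without wild-type replicate 1. The 3 markers of red blood cells ran from 2.92 to 4.31 against 2.73 to 4.45. The part of these cells in the levels of the transferases was not tested.

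The genes with profiles nearest to Gstm1 and Gstm2 over the 6 arrays were Pygl, Myo5b, Lama2, Galns and Actn2. Likeness was the root mean square difference from the mean profile of the pair, each gene centred on its own mean, among 6859 genes brighter than the median. It was 0.27 for Pygl (liver glycogen phosphorylase), 0.30 for Myo5b (a myosin of membrane recycling), 0.46 for Lama2 (a laminin chain), 0.48 for Galns (a lysosomal sulfatase) and 0.49 for Actn2 (an alpha actinin of muscle). The median over those genes was 1.17. The profile of the pair mostly held the group difference it was chosen for, at -1.17 to -0.91 in mutants and 0.34 to 1.62 in wild types. Nearness to it thus mostly marks a like difference and is no separate evidence. The 5 nearest genes were lower in mutants, from -1.27 (Lama2) to -2.22 (Pygl), with overlapping groups for Actn2. Of the other 8 members, Mgst3 (0.95), Gstm5 (0.96) and Gstt2 (0.98) came nearest and Mgst1 (1.74) was farthest. Pygl was at 5.11, 5.10 and 5.42 in mutants and 7.56, 7.18 and 7.54 in wild types on the log2 scale. Lama2 and Actn2, at 5.68 and 6.96 in wild-type replicate 2 against 7.30 and 9.27 in replicate 1, shared the low value of replicate 2.

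**Figure D4:**
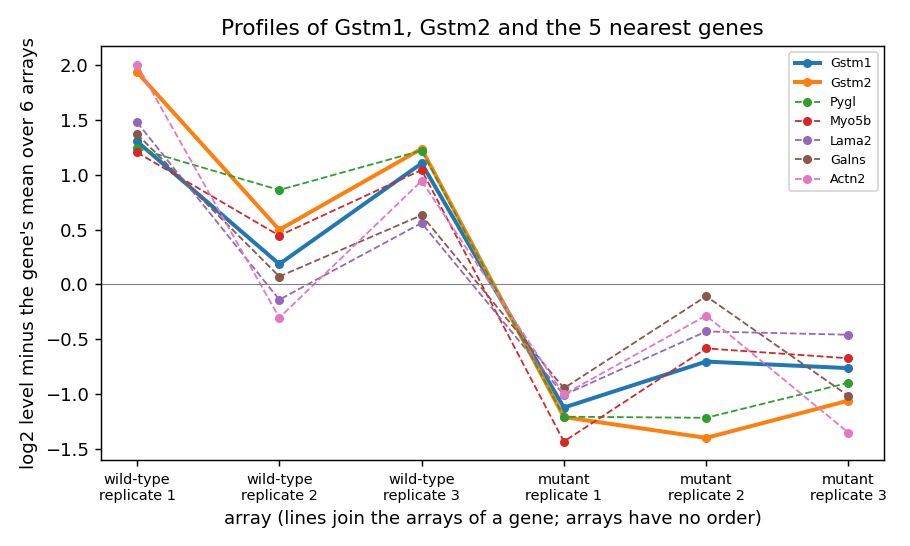
Log2 level minus the gene's own mean over the 6 arrays (vertical axis) for Gstm1 and Gstm2 (solid lines) and the 5 nearest genes (dashed lines) on each array (horizontal axis). All 7 are highest in wild-type replicate 1, and wild-type replicate 2 lies below the other wild types.

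Other genes of the glutathione pathway were taken as 65 listed genes, of which 54 were measured. Their median log2 difference was -0.08, with 31 lower and 23 higher, beside -0.01 over all 12393 genes; it was -0.15 without mutant replicate 2 and -0.02 without wild-type replicate 1. limma called 0 of the 54 at an adjusted p under 0.05. At an unadjusted p under 0.05, 5 were lower and 1 higher, against 1.72% and 2.13% of all genes. Groups did not overlap for 8 lower and 3 higher genes of the 54, where 4.58% and 4.22% of all genes were so. Gstm4 and Gstm6 are among the lower genes of both counts. They lie in the cluster of the chosen pair, and probes of the mu class can pick up each other's RNA. The counts are thus not separate from the chosen genes, and nothing is read from them.

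Among the 14 other transferases measured, 10 had lower means and the median difference was -0.18 (log2), or -0.05 with 9 lower when wild-type replicate 1 was left out. Those of lowest p were Gstm6, given above, and Gstk1, a kappa class enzyme of mitochondria and peroxisomes. Gstk1 was at 7.28, 7.51 and 6.78 in mutants and 8.28, 7.60 and 8.01 in wild types. Its groups were apart, though mutant replicate 2 lay within 0.09 of wild-type replicate 2. The difference was -0.77 ± 0.28 (SE). Of the 14, 10 were dimmer than the median probe set.

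Genes that make and recycle glutathione had a median difference of -0.22 (log2) over 11, with 8 lower, but -0.02 with 6 lower once wild-type replicate 1 was omitted. Without mutant replicate 1 the median was -0.04 and without wild-type replicate 3 -0.12. Ggct, which splits gamma-glutamyl peptides, was at 10.14, 10.11 and 10.66 in mutants and 11.29, 11.39 and 11.43 in wild types. Its wild types lay within 0.14 of each other and the mutants were all lower, a difference of -1.07 ± 0.21 (SE). A dim second probe set of Ggct differed by -0.40 ± 0.21, also without overlap. Gclc and Gclm, the catalytic and modifier subunits of the rate-limiting ligase, differed by -0.22 ± 0.31 and -0.38 ± 0.35, with overlapping groups. Leaving out wild-type replicate 1 gave -0.50 for Gclc and -0.08 for Gclm. The less bright probe set of Gclc differed by 0.02 ± 0.22, or -0.09 without wild-type replicate 1. Chac2, a glutathione-degrading cyclotransferase, was dim; its difference was 0.68 ± 0.34, or 0.31 with that array left out.

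Of 12 peroxidases and thiol enzymes 7 were lower and 5 higher, with a median of -0.10 (log2). The tally turned to 5 lower and 7 higher, and the median to 0.09, when wild-type replicate 1 was dropped, and the median to 0.07 when mutant replicate 1 was. Gpx1, the main cytosolic glutathione peroxidase, was at 11.10, 11.20 and 10.66 against 11.53, 10.86 and 11.36, a difference of -0.26 ± 0.26 (SE). Glrx, a glutaredoxin, differed by 0.66 ± 0.32 on its brighter probe set and by -0.03 ± 0.36 on the other. With wild-type replicate 1 omitted, the values were -0.13 for Gpx1 and 0.37 for the brighter Glrx probe set. The groups overlapped for both genes.

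Among 7 genes of conjugate export and further processing, Abcc1, a pump for glutathione conjugates, was at 6.62, 6.78 and 6.50 in mutants and 7.23, 7.03 and 7.20 in wild types. Each mutant was lower, by a mean log2 difference of -0.52 ± 0.18 (SE), while a dim second probe set differed by -0.11 ± 0.47. Anpep, an aminopeptidase, was dim and differed by -0.55 ± 0.39, which became -0.12 once wild-type replicate 1 was omitted. The median of the 7 was 0.03, and it changed sign when mutant replicate 2 (-0.05) or wild-type replicate 2 (-0.02) was left out.

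The 10 regulators and other targets of Nrf2, the factor that induces many transferases, had a median of 0.43 (log2), with 7 higher and 3 lower. This rested on wild-type replicate 1: with it left out the median was -0.02, with 4 higher and 6 lower. Ahr, a receptor that also induces transferases, was at 5.39, 6.29 and 5.46 in mutants and 3.66, 4.49 and 4.24 in wild types, 1.59 ± 0.34 (SE) higher on average, with no overlap, at a mean below that of the median probe set. A second, also dim Ahr probe set differed by 0.09 ± 0.17. Srxn1, a sulfiredoxin induced by Nrf2, differed by 0.47 ± 0.23 on its brightest probe set, and by 0.43, -0.06 and -0.32 on the other 3. Nfe2l2, which encodes Nrf2, differed by -0.12 ± 0.36, or -0.46 once wild-type replicate 1 was omitted. Nqo1, a quinone reductase widely used as a readout of Nrf2, differed by 0.28 ± 0.50, which that omission turned to -0.29.

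**Figure D5:**
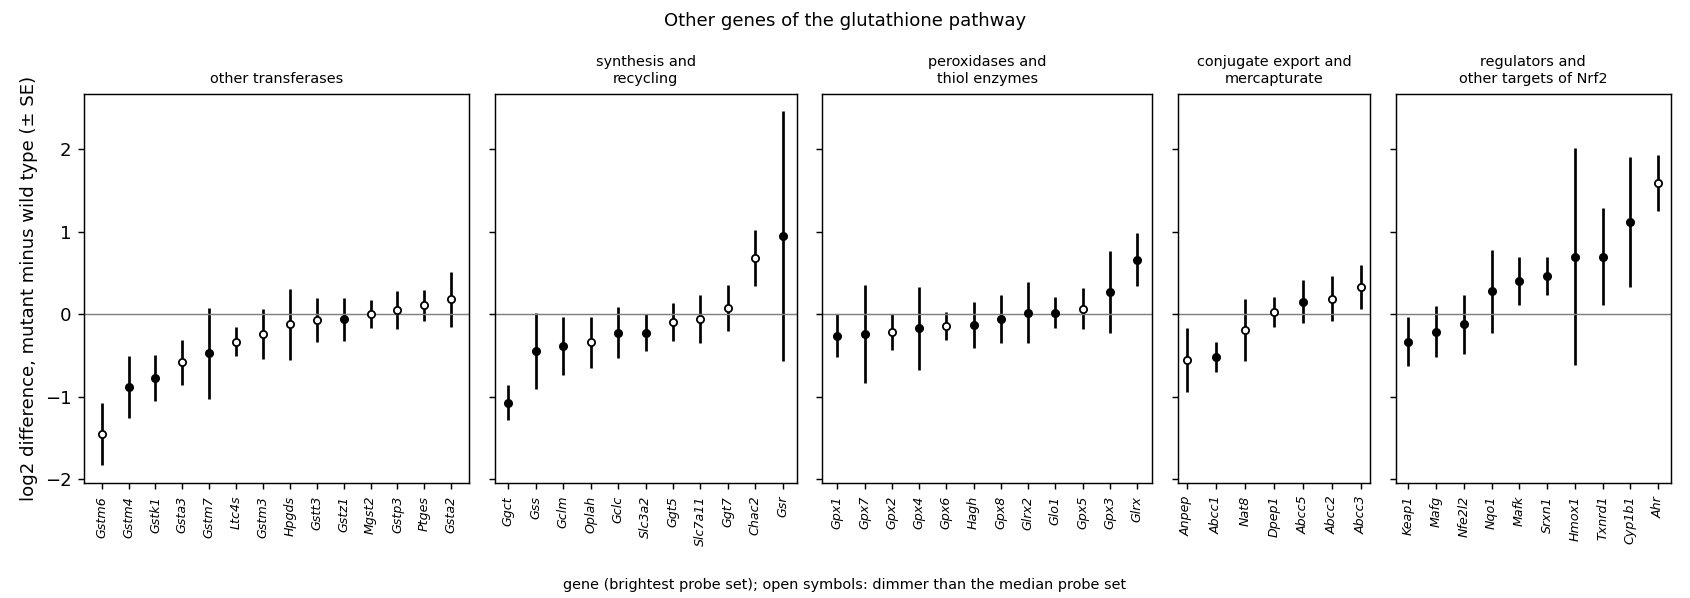
Log2 difference, mutant minus wild type, with its SE (vertical axis), of the 54 other glutathione pathway genes (horizontal axis) in 5 groups of function, 3 arrays per group. Gstm6 (-1.45) and Ahr (1.59) are at the ends, and Gsr and Hmox1 have the longest error lines.

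Wild-type replicate 1 lay apart in several of these genes, the clearest of which are named here after their values were seen. Gsr, the glutathione reductase, was at 4.19 there and between 8.63 and 10.21 on the other 5 arrays. Hmox1, heme oxygenase, was at 6.55 against 9.96 to 11.56, and Txnrd1, thioredoxin reductase, at 8.01 against 9.92 to 10.27. With Mgst1, Nqo1 and Chac2, 6 of the 64 members and pathway genes (9.38%) were lowest there by more than 1 on the log2 scale, against 7.90% of all other genes. Gstm4, Gstm7 and Anpep were highest there by more than 1, or 4.69% against 2.94%. The difference of Gsr was 0.95 ± 1.51 (SE) with this array and -0.94 without it, that of Hmox1 0.70 ± 1.31 and -0.92, and that of Txnrd1 0.70 ± 0.59 and -0.01. These values are of the brightest probe sets, and dim probe sets of Gsr and Txnrd1 did not share the low value. That of Gsr read 2.97 in wild-type replicate 1, against 2.44 to 3.47 on the other arrays. Those of Txnrd1 read 4.93, against 3.16 to 5.16, and 3.65, against 3.08 to 4.36.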

How the data were processed

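Lens RNA of newborn mice was amplified with a Nugen Ovation system, biotin-labelled and hybridised to 1 array per sample, per the labels' protocols. The deposited values are probe set intensities on a linear scale. RMA, which corrects background, normalises by quantiles and summarises probes, is named per the submitters' processing notes without version; how a linear scale was reached is not stated there. These steps can compress differences of dim probe sets.

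Log2 was taken here with no pseudocount. Of 22690 probe sets, 64 were controls and 22626 were tested; 0 sample columns were left out. Names came from the 2016 platform annotation, which gave 1 symbol to 20380 probe sets, several to 691 and none to 1555; 0 of the 16 member probe sets had several. Of the named, 20351 matched RefSeq (GRCm38.p6) by Entrez ID. Intensity has no detection call here, so "dim" means a mean below that of the median probe set, 5.26.

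R 4.3.3 and limma 3.58.1 (lmFit, eBayes) compared mutant with wild type, with Benjamini-Hochberg adjustment over all probe sets and a threshold of 0.05; the fit was tested on simulated data. Differences carry the SE of the fit, and levels the SD. The small number of arrays limits the precision. No pair of arrays shared over 0.186% of values. Groups came from the labels, which give no scan dates. Members, lists and alternatives were chosen with earlier results of these data known. The named pathway genes were the pair of lowest p in each of 5 groups of function, plus Gclc, Gclm, Gsr, Gpx1, Nfe2l2 and Nqo1. Likeness used genes brighter than the median. In comparing alternatives, a difference within 1 SE of 0 was treated as having no direction. Alternatives tried were array weights, a trended prior, a pseudocount of 32, a threshold of 0.1, centring each array on its median, quantile normalisation, a block on replicate number, averaging the probe sets of a gene, omitting dim probe sets, and omitting each array in turn or 1 pair together. Group and marker list values with an array omitted were added after seeing the data.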

Additional observations from a re-analysis of the deposited data

How the results depend on the processing

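Over the alternatives run, Gstm1 kept a lower mean in mutants in 15 of 15, from -2.07 to -1.43, and Gstm2 in 15 of 15, from -2.81 to -1.99 (log2). These runs reuse the arrays on which the pair was picked for being lower, so the kept sign is no separate evidence. With groups that do not overlap, omitting an array could not turn it. Gstm5, Gstp1, Gsto1 and Mgst1 kept their sign in 15 of 15 and Gstt2 and Mgst3 in 14 of 14, while Gsta4 and Gstt1 kept it in 13 of 15; the differences of Gsta4, Gstt1 and Gstp1 were smaller than their SE and have no direction here. Mgst1 ran from 0.17 without wild-type replicate 1 to 1.19, and Mgst3 from -1.13 with array weights to -0.19 with a pseudocount of 32.

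The count of probe sets called by limma was 0 with all arrays weighted equally and 7 with array weights; it was 0 in the other alternatives, the threshold of 0.1 and the replicate block included. The lowest adjusted p was 0.999 with the replicate block. Same-numbered arrays of the groups had deviations from their group means correlated at -0.07, -0.26 and -0.16. With 3 arrays per group these values cannot settle whether the number pairs the arrays. The count of member probe sets whose groups did not overlap was 4, and 5 to 8 with 1 array left out, where fewer arrays make a gap easier: 7 without mutant replicate 1, 7 without mutant replicate 3 and 8 without wild-type replicate 2. Of the 54 other pathway genes 0 were called in any alternative. Dim signals, as of Gstt2, Mgst3, Gstm3 and the faintest Gstm1 probe set, limit what their differences can show.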
